A study of Mus musculus with 4 samples.

Results

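The libraries compared here measure how nascent transcription changed after 3 hours of FCCP in 3T3-L1 cells, a mouse preadipocyte line, that carried an siRNA against GPS2. The library siGPS2_0min_FCCP (called siGPS2) had received no FCCP and the library siGPS2_3hours_FCCP (called siGPS2 with FCCP) had received it for 3 hours. Both carried the knockdown, so nothing in this pair measures the knockdown itself. The same FCCP step under a control siRNA, from siCTL_0min_FCCP to siCTL_3hours_FCCP, stands beside it wherever a comparison is made. Each of the 4 groups has 1 library, so the differences below rest on no replicates and carry no p-value. The assay was GRO-seq, which lets engaged RNA polymerases extend labelled RNA in isolated nuclei, so reads mark transcription in progress by position and strand. The members are strand-specific windows of 10 kb on the 19 autosomes with at least 40 reads of mapping quality 10 or more in the 2 siGPS2 libraries together. There were 33229 such windows, of 202176 that held any such read in the 4 libraries. The next lower count, 39 reads, was held by 654 windows with a median absolute log2 ratio of 0.36, and the lowest included count, 40, by 633 windows with 0.43. Positions are in mouse build mm8, counted from 1. The gene annotation used here belongs to a later build, so windows are named by position and no gene is assigned. Knockdown of Gps2 and the preadipocyte markers were therefore not analysed here.

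FCCP carries protons across the inner mitochondrial membrane and so uncouples respiration from ATP synthesis. Cells answer such stress in the nucleus, in part through the integrated stress response, in which the transcription factor ATF4 raises genes of amino acid supply, tRNA charging and folate metabolism. GPS2 is a cofactor of transcription known from corepressor complexes, and the title of the study places it in the signal from mitochondria to the nucleus. A gene transcribed from end to end appears in GRO-seq as a run of neighbouring windows on 1 strand, and a change in its transcription moves these windows together.

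The 2 siGPS2 libraries came from 1 lane of sequencing run 189, to which siCTL with FCCP also belongs, whereas siCTL without FCCP came from run 183. They held 2223803 and 2236708 usable reads without and with FCCP, against 3342833 and 3352850 for siCTL. Of the listed reads, 54.7% and 55.1% reached mapping quality 10 in the siGPS2 libraries, against 81.9% and 82.3% in the siCTL pair. Median windows held 39 and 40 reads, and the scale between the siGPS2 libraries was 1. Reads piled up in the siGPS2 libraries: the fullest 200 bp bin of a window held a median of 24.4% of its reads without FCCP and 22.97% with it, against 9.38% and 9.09% in the siCTL pair. Of the 5′ positions read in siGPS2 with FCCP, 12.8% were also read in siGPS2 without it, whereas 4.16% were also read in siCTL with FCCP. Intervals here cover counting error only and treat reads as independent, so they are too narrow where reads pile up. Across windows with 40 to 79 reads the log2 ratio had a robust SD of 0.51, where counting error alone gives 0.39. In the 150 windows with 640 reads or more it was 0.24 against 0.10. In the siCTL pair the same classes had 0.58 against 0.38, and 0.40 against 0.10, so its ratios lay farther apart at every depth.

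**Figure D1:**
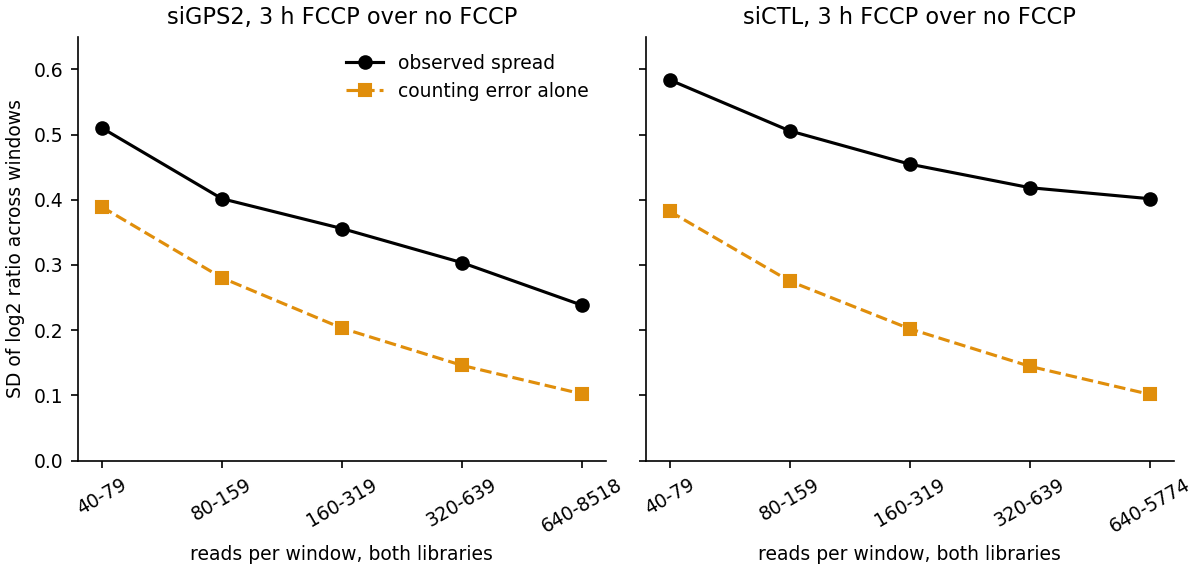
Robust SD of the log2 ratio of FCCP over no FCCP across 10 kb windows (black) and the SD that counting error alone would give (orange), by reads per window, for the siGPS2 pair (left) and the siCTL pair (right). In siGPS2 the observed spread falls from 0.51 to 0.24 and stays above counting error in each of the 5 classes.

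A limited share of windows changed after FCCP, and more rose than fell. A window was called when reads differed at least 1.5-fold and the 99.9% Clopper-Pearson interval of the ratio, an exact one that covers counting error, left out 1. By this rule 969 windows changed, 2.92% of those tested: 599 rose, 1.8%, and 370 fell, 1.11%. The higher windows went from a median of 35 reads to 78, and the lower ones from 93 to 46. Of the higher windows 403 passed 2-fold and 36 passed 4-fold, and the 599 log2 ratios ran from 0.59 to 3.06 with a median of 1.19. The lower windows ran from -3.19 to -0.59 with a median of -0.99, and 178 passed 2-fold. The fold alone was passed upward by 11.2% of windows and downward by 8.73%. With the upper quartile as scale 392 rose and 688 fell, so the share of higher calls, 61.8% here, was 36.3% there, and which direction prevailed rests on the scale. With at most 2 reads counted per bin, 8 rose and 2 fell among the 22740 windows that kept 40 reads. This cap also narrows the ratio of a window in which many bins hold more than 2 reads, so these counts do not measure piles alone.

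**Figure D2:**
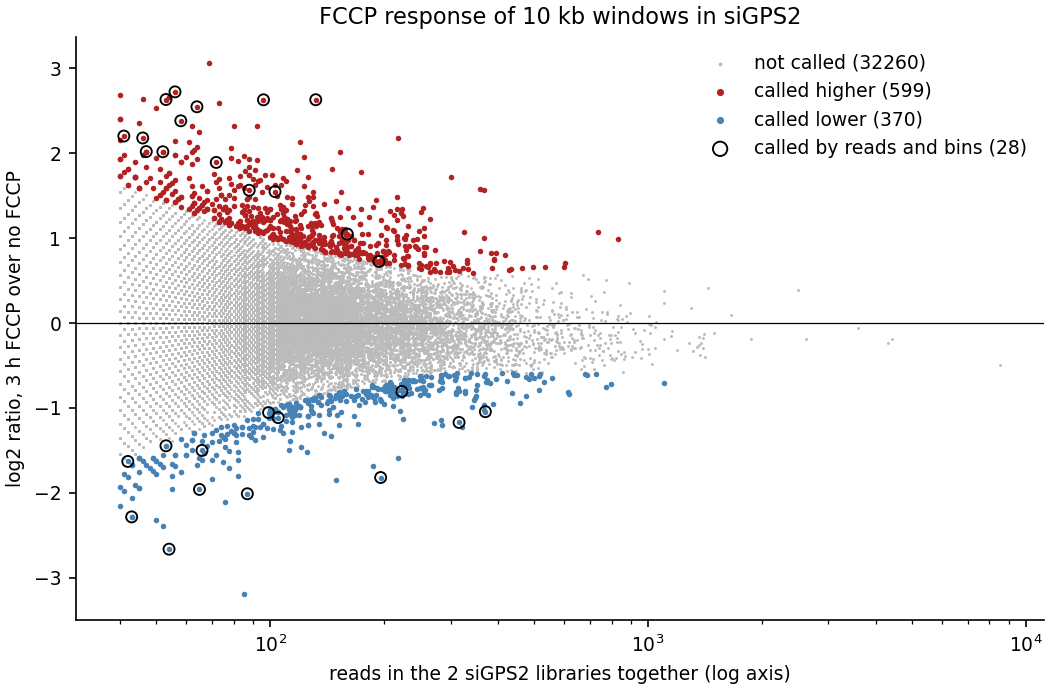
Log2 ratio of reads with 3 hours of FCCP over no FCCP in siGPS2 against the reads of both libraries (log axis), 1 point per 10 kb window. The 599 windows called higher are red, the 370 called lower blue, and the 28 called by both reads and bins are circled.

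The share of windows called rose with depth, except in the deepest class. Of the 16831 windows with 40 to 79 reads 158 rose and 81 fell, 1.42% in all. Of the 782 windows with 320 to 639 reads 23 rose and 43 fell, 8.44% in all. Among the 150 deepest windows 2 rose and 6 fell, 5.33% in all. The median log2 ratio moved from 0.04 in the shallowest class to -0.18 in the deepest.

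Because counting error understates the spread, windows were also judged against the spread of windows of like depth, a rule added after the data were seen. A window then had to lie 3.29 robust SDs from the median of its class as well as pass 1.5-fold. By this rule 152 windows rose, 0.457% of those tested, and 58 fell, 0.175%. Of the 132 higher windows with enough reads in siCTL, 130 were above 0 there and 127 passed 1.5-fold upward. Of the 50 lower ones, 48 were below 0 and 39 passed 1.5-fold downward. Among all 31722 windows tested in both pairs, 16490 were above 0 in siCTL and 4365 past the fold upward, and 14568 were below 0 and 3652 past it downward.

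Bins were counted because a pile of reads fills only 1 of them. Windows that rose filled a median of 17 of their 50 bins before FCCP and 26 after, and those that fell went from 21 bins to 15. Across all windows the medians were 17 and 18. In the higher windows 24.4% of the reads with FCCP lay in bins that held no read without it, against 21.0% over all windows. The matching share in the lower windows leaned the other way. Of their reads without FCCP, 13.3% lay in bins that held no read with it, a smaller share than over all windows. Their fullest bin held a median of 28.4% of the reads without FCCP, against 24.4% over all windows. With its fullest bin taken away, 591 of the 599 higher windows and 341 of the 370 lower ones still passed 1.5-fold, and 0 changed sign. These windows had been picked as past the fold on the same reads, which favoured that outcome. Counted anew without the fullest bins, with 25304 windows left to test, the full rule called 346 higher and 230 lower. A stricter call asked in addition that the bins read in 1 library alone favour the same direction, with an exact interval at the same error. Their number was 1.2 times as high with FCCP in the median of the 7063 windows with 20 or more such bins, and this ratio was taken as no change. By reads and bins together 28 windows changed, 0.0843%: 15 rose, 0.0451%, and 13 fell, 0.0391%. With bins of 100 bp these were 40 and 20.

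Windows that rose lay next to each other. Of 936 tested windows adjoining a higher window on the same strand, 312 were themselves higher, or 33.3%, and 0 were lower. Over all windows 2.13% of tested neighbours were higher. At a distance of 50 kb 25.4% of neighbours were still higher, and at 100 kb 15.9%. Windows that fell had 88 lower windows among 411 tested neighbours, or 21.4% against 0.935% over all windows, and at 100 kb 3.77%. Calls on the opposite strand were near the background. Of all 3030 windows with a tested window facing them, 55 faced a higher one and 54 a lower one. Of the 55, 0 were higher and 0 lower, with a median log2 ratio of -0.11. Of the 54, 0 were higher and 2 lower, with a median of -0.29, where all such facing windows had -0.08.

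Higher windows formed 38 runs of 3 or more, which held 143 of the 599, and 354 stood alone. Lower windows formed 6 such runs with 24 of the 370, and 294 stood alone. All 6 runs that fell were on the plus strand, whereas 15 of the 38 that rose were. Counted by window, the plus strand held 57.3% of lower and 47.4% of higher windows, against 51.2% of all tested. The 38 runs that rose had log2 ratios from 0.79 to 2.83, and the 6 that fell from -1.58 to -0.86. In each of the 44 runs the number of bins with a read moved the same way as the reads, and each passed 1.5-fold without the fullest bin of its windows. The bins read in 1 library alone gave a 95% interval that excluded no change in 34 of the 38 and in 6 of the 6. Runs were picked on the reads that give these ratios, so the ratios lean away from no change.

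The longest run that rose lies on the minus strand of chromosome 13, from 55230001 to 55300000. Its 7 windows held 7, 10, 25, 23, 22, 20 and 35 reads in siGPS2 and 38, 63, 98, 78, 75, 62 and 88 with FCCP, in order of position. Each window was higher with FCCP, and the total went from 142 to 502 reads, 3.53-fold (log2 1.82, 95% interval 1.55 to 2.10). Bins with a read went from 77 to 149. The response was largest toward the lower coordinates, which on the minus strand is the downstream side, with log2 ratios from 1.32 in the last window of the run to 2.60 in the second. Beyond its upstream edge the windows from 55300001 and 55310001 also rose, from 28 to 55 and from 57 to 160 reads. The window after these, from 55320001, held 100 and 113 reads and so stayed close to level. In siCTL the same 7 windows rose from 70 to 184 reads in total (log2 1.39, 0.99 to 1.81). There 4 of the 7 windows held under 40 reads and were not tested singly, and 0 of the other 3 was called.

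On chromosome 10, minus strand, the run from 82910001 to 82970000 held 59, 70, 34, 39, 26 and 26 reads in siGPS2 and 148, 231, 90, 115, 92 and 81 with FCCP. The rise was even along the 60 kb, with log2 ratios between 1.32 and 1.80. It stopped sharply at the upstream edge, where the next window held 22 and 18 reads and the following window 0 and 0. Downstream it went on at a lower level, with 11 and 26 reads in the window from 82900001. In total the run went from 254 to 757 reads (log2 1.57, 1.37 to 1.79), and the opposite strand over the same windows from 73 to 49.

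On chromosome 8 a run on each strand rose. From 88380001 to 88430000 on the plus strand the windows held 30, 24, 33, 72 and 8 reads in siGPS2 and 123, 71, 93, 179 and 32 with FCCP. The total went from 167 to 498 (log2 1.57, 1.32 to 1.84) with 0 and 0 reads in the window before it, while the opposite strand held 162 and 132. On the minus strand, 63790001 to 63850000 held 20, 67, 37, 75, 38 and 30 reads without FCCP and 63, 144, 77, 154, 93 and 78 with it. This sums to 267 and 609 reads (log2 1.19, 0.98 to 1.40).

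A pair of weaker runs lies on the minus strands of chromosomes 18 and 14. From 42320001 to 42370000 on chromosome 18 the windows held 73, 32, 73, 57 and 57 reads without FCCP and 125, 77, 144, 107 and 101 with it (log2 0.92, 0.72 to 1.13 for the total). Its bins read in 1 library alone did not exclude no change (log2 interval -0.11 to 1.06). From 60590001 to 60640000 on chromosome 14 they held 96, 28, 59, 41 and 39 and then 151, 65, 123, 88 and 89 (0.97, 0.76 to 1.19). The first of these was less raised than the others, and the adjoining windows downstream, from 60580001 and 60570001, held 121 and 131 reads and 180 and 217. Farther downstream, the windows from 60560001 and 60550001 held 20 and 40 and 16 and 35.

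**Figure D3:**
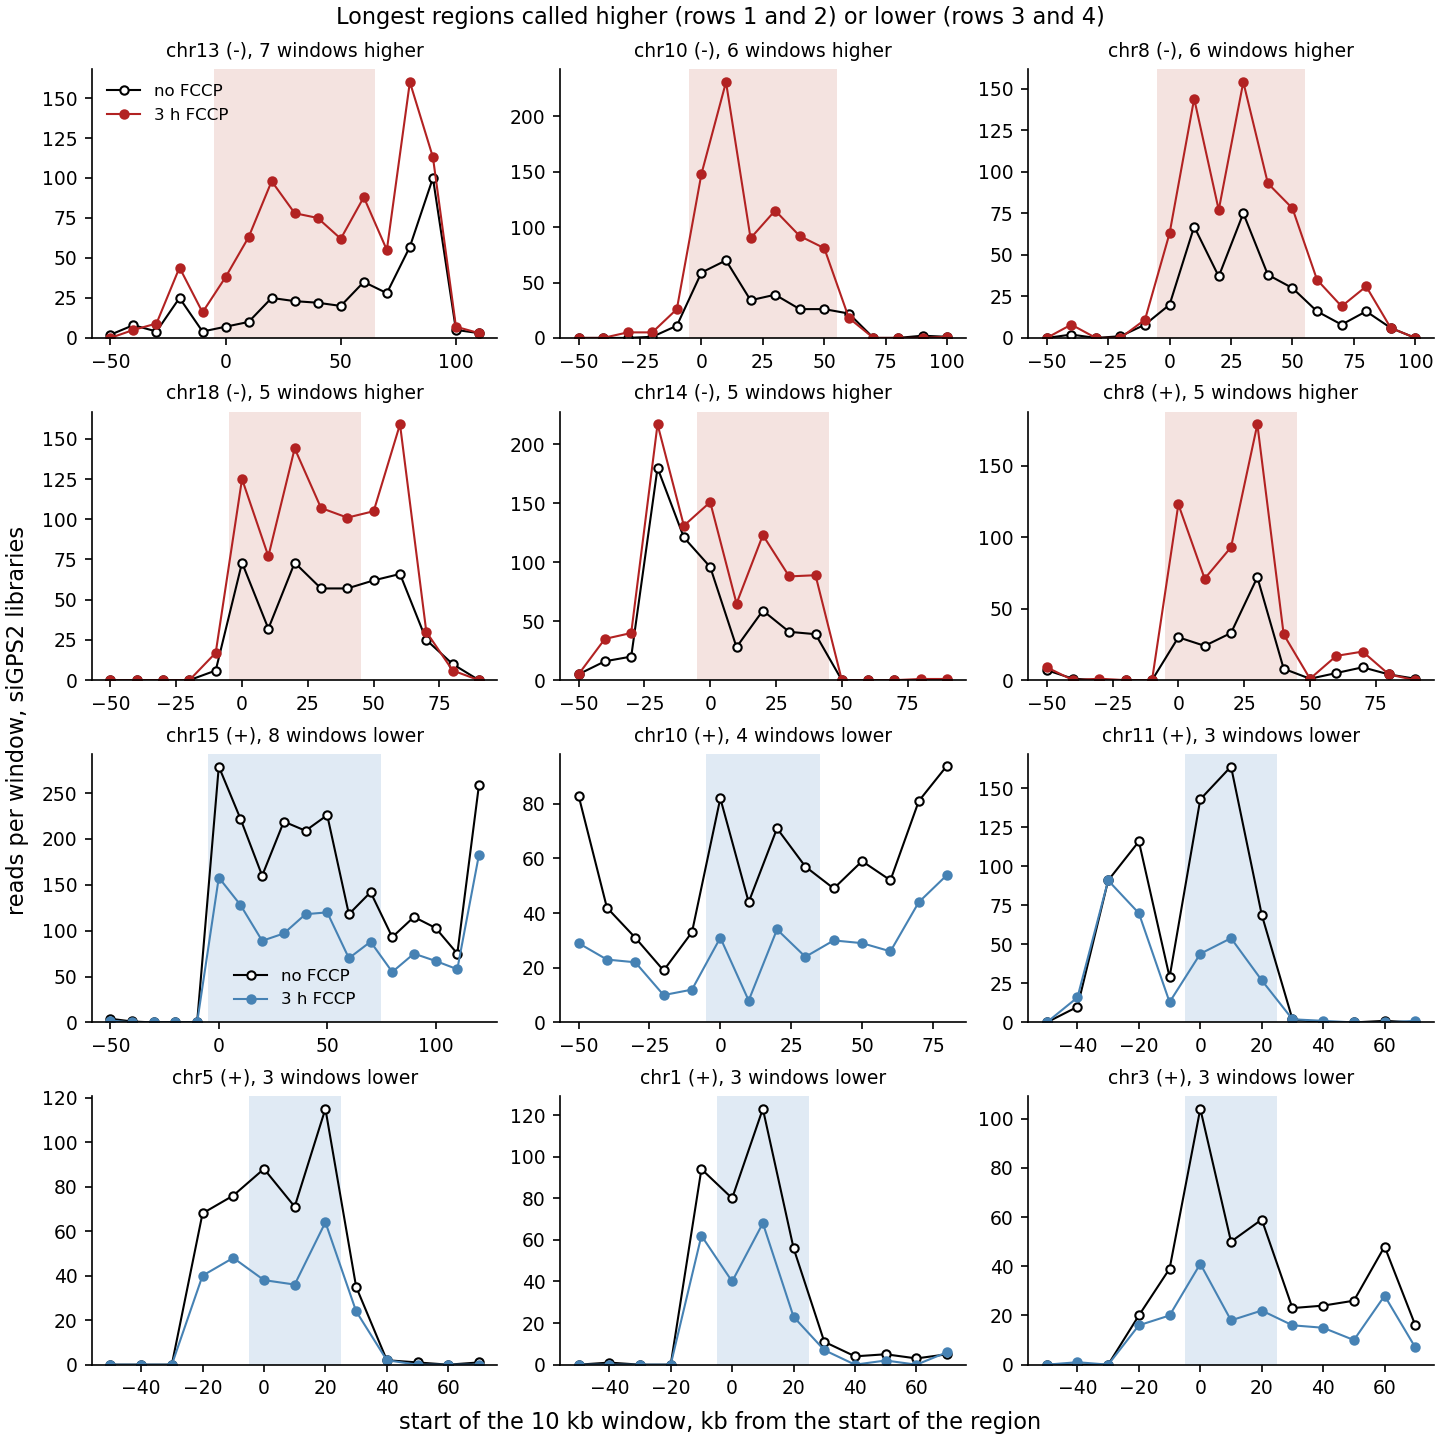
Reads per 10 kb window in siGPS2 without FCCP (open, black) and with 3 hours of FCCP (filled) along the 6 longest runs called higher (red, rows 1 and 2) and the 6 called lower (blue, rows 3 and 4), with 5 windows on either side and the run shaded. Within the shaded runs each filled point lies above the open one where the run rose and below it where it fell.

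Longer stretches appeared once called windows with at most 2 uncalled ones between them were joined, a rule added after the data were seen. There were 14 stretches with 5 or more called windows, 13 higher and 1 lower. The widest lies on chromosome 3, minus strand, from 127170001 to 127400000, where 23 of 23 windows were above 0 and 14 were called. It held 327 reads without FCCP and 980 with it (log2 1.58, 1.40 to 1.77), and bins with a read went from 214 to 390. On chromosome 10, plus strand, 21 of 21 windows from 5120001 to 5330000 were above 0 and 15 were called. Reads there went from 460 to 1192 (1.37, 1.22 to 1.53), with no window of the 21 under a log2 ratio of 0.72. The opposite strand held 6 reads without FCCP and 9 with it.

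On chromosome 9, plus strand, the 11 windows from 64610001 to 64720000 went from 229 to 661 reads (1.53, 1.31 to 1.75) with 9 called. On chromosome 6, plus strand, the 11 windows from 15670001 to 15780000 went from 513 to 1028 (1.00, 0.85 to 1.16) with 8 called. On chromosome 5, minus strand, the 9 windows from 45980001 to 46070000 went from 277 to 656 (1.24, 1.04 to 1.45), also with 8 called. In each of these 3 stretches all windows were above 0. On chromosome 1, minus strand, 10 of the 11 windows from 172590001 to 172700000 were above 0, and the stretch went from 313 to 632 reads (1.01, 0.82 to 1.21).

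Among falling regions the longest was a run of 80 kb on the plus strand of chromosome 15, 27410001 to 27490000. Its 8 windows held 279, 222, 160, 219, 209, 226, 118 and 142 reads in siGPS2 and 158, 128, 89, 97, 118, 120, 70 and 88 with FCCP. Each was lower with FCCP, and the total went from 1575 to 868 (log2 -0.86, 95% interval -0.98 to -0.74). The 5 windows before it held at most 4 reads in either library, so reads began at its edge. The 5 windows after it were also below 0 but were not called. Their log2 ratios lay between -0.75 and -0.37.

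The other regions that fell were shorter. On chromosome 10, plus strand, 69000001 to 69040000 held 82, 44, 71 and 57 reads and then 31, 8, 34 and 24 (log2 -1.38 in total, -1.74 to -1.05). The 5 windows on each side of it were below 0 as well. On chromosome 11, plus strand, 87260001 to 87290000 held 143, 164 and 69 reads and then 44, 54 and 27 (-1.58, -1.89 to -1.29). It lies where reads end, since the next window held 2 and 2, while the window from 87230001, 30 kb upstream, held 91 and 91 reads. The windows between, from 87240001 and 87250001, also fell, from 116 to 70 and from 29 to 13 reads.

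The chromosome 3 run, plus strand, 129540001 to 129570000, held 104, 50 and 59 reads without FCCP and 41, 18 and 22 with it (-1.39, -1.78 to -1.02). That on chromosome 5, plus strand, 75450001 to 75480000, held 88, 71 and 115 and then 38, 36 and 64 (-0.99, -1.30 to -0.69). On chromosome 1, plus strand, 72160001 to 72190000 held 80, 123 and 56 and then 40, 68 and 23 (-0.98, -1.30 to -0.67). In these 3 runs each window with FCCP lay below the same window without it. With at most 2 reads counted per bin, the 12 runs above kept their sign but 8 no longer passed the call: those on chromosome 8, minus strand, 14 and 18 among the 6 that rose, and all but chromosome 10 among the 6 that fell.

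Among single windows called by reads and bins, those with the largest rise started from few reads. The choice favours this, since ranking by ratio picks windows with few reads before FCCP. The call by bins also needs bins left to fill. The window from 136200001 on chromosome 1, minus strand, held 7 reads and then 49 (log2 2.72, lower 95% limit 1.66) and from 4 bins with a read to 25. It belongs to a run of 3 windows that went from 20 to 145 reads in siGPS2 and from 7 to 125 in siCTL. On chromosome 12, plus strand, 84880001 to 84890000 went from 18 to 114 reads (2.63, 1.94 to 3.47) and from 5 bins to 25, and in siCTL from 6 to 77 reads. On chromosome 17, minus strand, the adjoining windows from 27560001 and 27570001 went from 7 to 34 and from 13 to 83 reads. In siCTL they went from 10 to 41 and from 4 to 38.

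On chromosome 3, plus strand, 95920001 to 95930000 went from 7 to 46 reads, and in siCTL from 2 to 19. On chromosome 9, plus strand, 51610001 to 51620000 went from 9 to 55, and in siCTL from 7 to 20. The window from 127190001 to 127200000 on chromosome 3, minus strand, inside the 230 kb stretch, went from 9 to 49, and in siCTL from 17 to 49. The window from 44190001 to 44200000 on chromosome 14, minus strand, went from 8 to 38 in siGPS2 and from 2 to 5 in siCTL, where the counts are too low to compare. The 8 windows held 7 to 18 reads before FCCP in siGPS2 and 34 to 114 after it.

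The windows with the most reads among those called higher by both counts had smaller ratios. The window from 37200001 on chromosome 2, minus strand, held 73 reads and then 121 (log2 0.73, 0.30 to 1.17) while its bins with a read went from 19 to 38. On chromosome 16, plus strand, 31670001 to 31680000 went from 52 to 108 reads (1.05, 0.56 to 1.56), with 19 and 37 bins. On chromosome 5, minus strand, 46050001 to 46060000, inside the stretch described above, went from 26 to 77 (1.55, 0.91 to 2.27). The call by bins had required a gain in covered bins, so the gain in these 3 windows is no separate result. In siCTL their bins with a read went from 44 to 42 on chromosome 2. They went from 38 to 47 on chromosome 16 and from 34 to 41 on chromosome 5.

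**Figure D4:**
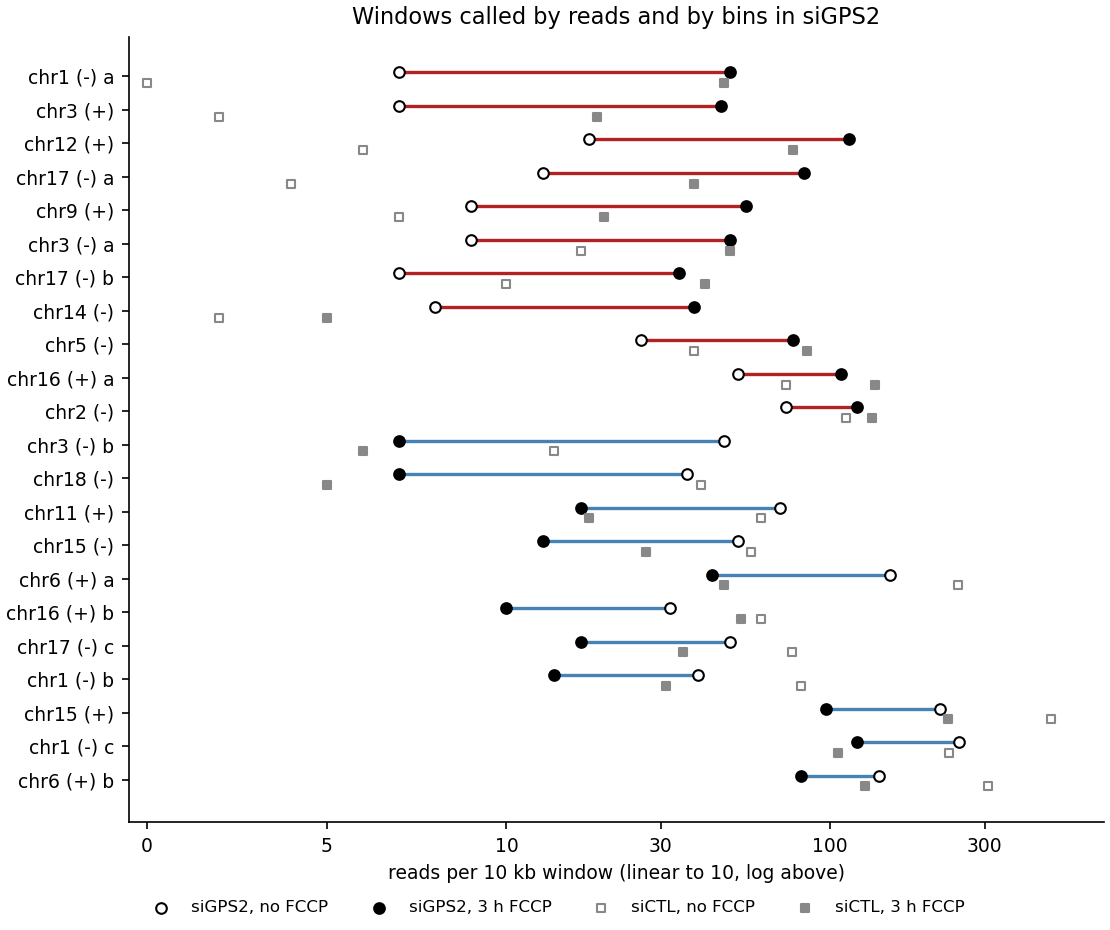
Reads per 10 kb window (axis linear to 10 and logarithmic above) for the 22 windows named by rule, in siGPS2 (circles joined by a line, red where higher and blue where lower) and in siCTL (grey squares), open without and filled with 3 hours of FCCP; letters tell apart windows of 1 chromosome and strand, in the order drawn. In 22 of 22 windows siCTL moved in the direction that siGPS2 did. Its 95% interval included 0 on chromosome 16 (+) b, from 61 to 53 reads, and chromosome 2 (-), from 112 to 135. It also did on chromosome 14 (-), from 2 to 5, and chromosome 3 (-) b, from 14 to 6. Of all 31722 windows tested in both pairs, 16490 were above 0 in siCTL and 14568 below.

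The windows with the largest fall by both counts held 32 to 153 reads before FCCP. On chromosome 3, minus strand, 144660001 to 144670000 fell from 47 reads in 15 bins to 7 reads in 1 bin (log2 -2.66, -4.14 to -1.59). In siCTL it held 14 and 6 reads, and on reads of quality 42 alone its log2 ratio was -1.67. The window from 60760001 on chromosome 18, minus strand, fell from 36 to 7 (-2.28, -3.78 to -1.17), and in siCTL from 40 to 5. The window from 83000001 on chromosome 6, plus strand, fell from 153 reads in 39 bins to 43 in 17 (-1.82, -2.35 to -1.33), and in siCTL from 249 to 47. It was the deepest of the windows with a fall beyond 3-fold that both counts called.

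The window from 83090001 on chromosome 11, plus strand, fell from 70 to 17 and in siCTL from 61 to 18. On chromosome 15, minus strand, 97680001 to 97690000 fell from 52 to 13 and in siCTL from 57 to 27. On chromosome 17, minus strand, 15530001 to 15540000 fell from 49 to 17 and in siCTL from 76 to 35. All 3 therefore moved down under each siRNA. The window from 134100001 on chromosome 1, minus strand, fell from 39 to 14, and in siCTL from 81 to 31. The window from 43440001 on chromosome 16, plus strand, fell from 32 to 10 in siGPS2 (-1.63, -2.87 to -0.62) but held 61 and 53 in siCTL (-0.20, -0.76 to 0.35). The difference between these responses did not exclude 0 at the 0.001 error (interval -3.33 to 0.48). On chromosome 1, minus strand, 173330001 to 173340000 was the deepest of the 13 windows, falling from 250 to 121 reads (-1.04, -1.37 to -0.73), and from 233 to 106 in siCTL. The window from 55270001 on chromosome 6, plus strand, fell from 142 to 81, and in siCTL from 307 to 128. With at most 2 reads per bin, 1 of the 11 named windows that rose (chromosome 2) and 6 of the 11 that fell no longer passed the call, with no change of sign. On reads of quality 42 alone 5 of the 22 were not called: those on chromosome 3, minus strand, from 144660001, chromosome 17 from 27560001, chromosome 2, chromosome 16 from 43440001 and chromosome 1 from 134100001. Without the fullest bin the windows on chromosome 2 and on chromosome 16 from 43440001 were not called.

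Calls were spread over the 19 autosomes. The share of windows that rose was lowest on chromosome 2, with 25 of 2709 or 0.923%, and highest on chromosome 13, with 44 of 1483 or 2.97%. The share that fell was lowest on chromosome 14, with 8 of 1242 or 0.644%, and highest on chromosome 10, with 35 of 1579 or 2.22%. On chromosome 15 windows that fell, 29 of 1394, outnumbered those that rose, 15. No test was made between chromosomes, since neighbouring windows are not independent.

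The control siRNA gives a second pair of libraries that shares none with the siGPS2 pair, although it spans sequencing runs 183 and 189, so that run and FCCP cannot be told apart in it. Of the 599 windows that rose in siGPS2, 563 had 40 or more reads in siCTL. Of these, 551 were above 0 there and 456 passed 1.5-fold upward, beside the counts over all windows given above. The call rule was met upward in siCTL by 375 of the 563 and downward by 0, where it called 9.33% of all tested siCTL windows, 5.14% higher and 4.18% lower. Of the 370 that fell, 357 were tested in siCTL, 338 were below 0 and 220 passed 1.5-fold downward, beside 14568 and 3652 of all 31722. Of the 357, 169 were called lower there and 0 higher. The 563 higher windows had a median log2 ratio of 1.15 in siGPS2 and 1.12 in siCTL, and the 357 lower ones -0.97 and -0.73. The siGPS2 medians are raised by the choice of windows in siGPS2, so the gap between the siRNAs cannot be read from them.

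All 38 runs that rose in siGPS2 were above 0 in siCTL with a 95% interval that excluded 0, and all 6 runs that fell were below 0 in the same way. The median log2 ratio of the 38 was 1.32 in siGPS2 and 1.48 in siCTL, and in 27 of them the siCTL value was the larger although the runs had been picked in siGPS2. The 6 that fell had medians of -1.19 and -1.33, and in 4 of them the fall was larger in siCTL. Ratios of the siCTL pair lay farther apart at every depth, as given above. The difference of the responses excluded 0 at an error of 0.001 in 6 of the 38, all with the smaller rise in siGPS2. It did so in 0 of the 6 runs that fell.

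**Figure D5:**
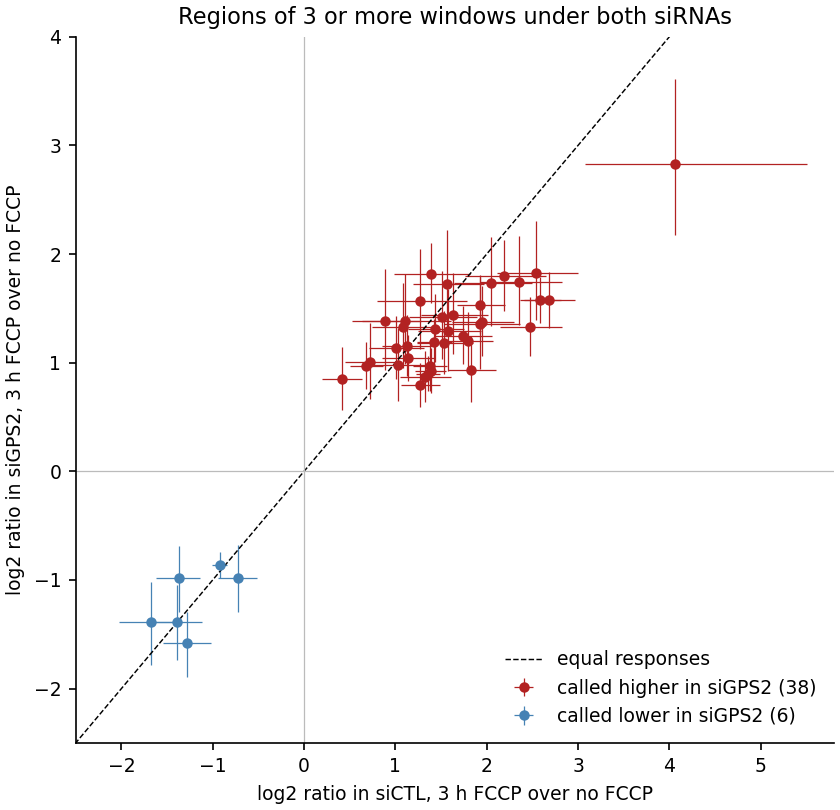
Log2 ratio of FCCP over no FCCP in siGPS2 (vertical) against siCTL (horizontal) for the 44 runs of 3 or more windows called in siGPS2, with 95% exact intervals from read counts. The 38 runs that rose and the 6 that fell have the same sign on both axes, and 27 of the 38 lie below the dashed line of equal responses.

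Among runs whose difference excluded 0 at that error, 3 had a gap beyond 1 on the log2 scale. The run on chromosome 10 from 82910001 rose 2.98-fold in siGPS2 and 5.98-fold in siCTL, from 196 to 1175 reads, and the log2 difference was -1.01 (99.9% Wald interval -1.51 to -0.50). The run on chromosome 8, plus strand, rose 2.98-fold against 6.40-fold, from 126 to 809 reads in siCTL, a difference of -1.10 (-1.73 to -0.48). On chromosome 9, minus strand, 61860001 to 61910000 rose from 159 to 400 reads in siGPS2 and from 87 to 484 in siCTL, a difference of -1.14 (-1.85 to -0.43).

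The stretches on chromosome 9, plus strand (-0.69, -1.20 to -0.18) and chromosome 6 (-0.67, -1.03 to -0.30) also rose less in siGPS2. So did, by less than 1.5-fold, the chromosome 1 stretch from 172590001 (-0.53, -0.97 to -0.09) and the chromosome 18 run (-0.46, -0.91 to -0.02). For the chromosome 3 stretch from 127170001 the upper limit was 0.0052, at a difference of -0.43. The difference did not exclude 0 in other long regions: it was -0.18 (-0.53 to 0.18) for the chromosome 10 stretch from 5120001, -0.23 (-0.70 to 0.24) for chromosome 8, minus strand, and 0.06 (-0.18 to 0.30) for the region that fell on chromosome 15. For the run on chromosome 13 the value leaned the other way, at 0.43 (-0.37 to 1.23). These intervals leave room for differences of the sizes they span.

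Tested window by window over the 31722 shared windows, the FCCP response was higher in siGPS2 than in siCTL in 61, or 0.192%, and lower in 251, or 0.791%, at 1.5-fold and an error of 0.001. Of the 251, 250 were above 0 in siCTL and 200 had been called higher there. Their median log2 ratio was 1.06 in siCTL and -0.03 in siGPS2. All 61 were below 0 in siCTL, with medians of -0.98 in siCTL and 0.33 in siGPS2. The siCTL pair helped to pick these windows, which favours a large response there. With at most 2 reads per bin the differences numbered 12, and with the upper quartile as scale 561, of which 544 were lower.

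Among the windows called in siGPS2, a small number changed more there than in siCTL. Of the 563 called higher and tested in siCTL, the difference was called higher in 5 and lower in 18. Of the 357 called lower and tested there, it was called lower in 10 and higher in 2. Over all 31722 windows it was higher in 0.192% and lower in 0.791%. The choice of windows on the siGPS2 reads favours a larger response in siGPS2. The windows named here were picked after their values were seen. On chromosome 8, plus strand, 122000001 to 122010000 went from 20 to 68 reads in siGPS2 and from 26 to 21 in siCTL (log2 1.74 and -0.30). That from 102840001 on chromosome 13, minus strand, went from 16 to 46 against 48 to 40. The window from 46830001 on chromosome 8, minus strand, fell from 49 to 16 in siGPS2 and held 50 and 56 in siCTL. On chromosome 4, plus strand, 149700001 to 149710000 fell from 395 to 222 while siCTL held 648 and 628. In the last of these, the bins with a read numbered 48 without FCCP and 49 with it, of 50. With nearly all bins filled at this depth, that count says little about how the fall was spread.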

How the data were processed

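GRO-seq reads of 4 libraries were used. The deposited files list 1 aligned read per line with a score from 0 to 42 in the fifth column, read here as mapping quality. Per the submitters' processing notes, Bowtie and HOMER were used with mouse build mm8. No version is given in the sources used here. Each file has 4200000 or 4200001 lines and 0 repeated read positions, so the depth before the authors' processing is unknown. 3 libraries each had 1 line with empty leading fields, which was left out.

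Reads of score 10 or more were counted by 5′ end in windows of 10000 bases and bins of 200. The scale was the median ratio over 29340 windows with 20 or more reads in each library, with 0.5 added to counts for ratios. Intervals were exact Clopper-Pearson intervals, or Wald intervals for differences. Code ran in Python 3.11.15 with SciPy 1.17.1 and was tested on simulated data. Named are, per direction, the 8 largest ratios and 4 deepest windows called by reads and bins, and the 6 longest runs of 3 or more. Members and rules were chosen with earlier results of these data known. Alternatives changed the scale, read minimum, mapping quality, windows, bins, fold, error and the treatment of piled reads. Stretches, the spread of windows of like depth and removal of the fullest bin were added after the data were seen.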

Additional observations from a re-analysis of the deposited data

Results flagged for a closer look

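Under the control siRNA and the GPS2 siRNA the FCCP response differed at 5 of the long regions named above, each by a Wald interval from counts at an error of 0.001 and by at least 1.5-fold. The log2 difference, siGPS2 minus siCTL, was -1.01 on chromosome 10 from 82910001, -1.10 on chromosome 8, plus strand, from 88380001, and -1.14 on chromosome 9, minus strand, from 61860001. It was -0.69 on chromosome 9, plus strand, from 64610001 and -0.67 on chromosome 6, plus strand, from 15670001. All 5 rose under both siRNAs and rose less in siGPS2. Over single windows the difference was called in 312. Piles of reads are more frequent in siGPS2, a smaller share of its reads reached mapping quality 10, and the siCTL pair spans sequencing runs. The part of each in these differences was not tested.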

How the results depend on the processing

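With 1 library a side no replicate could be left out. No paired analysis was possible because each group has 1 library and the labels carry no replicate numbers. Windows called higher, 599 at first, numbered 392 with the upper quartile as scale, 359 with a minimum of 100 reads and 356 on reads of quality 42. They numbered 8 with at most 2 reads per bin, 1359 at an interval error of 0.01, 346 without each window's fullest bin and 152 by the spread of windows of like depth. Windows called lower, 370 at first, numbered 688 with the upper quartile, 589 on reads of any mapping quality, 178 at a 2-fold minimum, 2 with at most 2 reads per bin, 913 at an error of 0.01, 230 without the fullest bin and 58 by the spread. The last 2 settings were chosen after seeing the data. Higher windows called by reads and bins, 15 at first, numbered 4 with 100 reads, 9 at quality 42, 49 in windows of 20 kb, 6 with at most 2 reads per bin, 101 at an error of 0.01, 40 with bins of 100 bp and 9 without the fullest bin. Lower ones, 13 at first, numbered 5, 8, 37, 1, 102 and 20 in the first 6 of these settings, 20 with a minimum of 1 read and 5 by the spread. Differences between the siRNAs, 312 at first, numbered 561 with the upper quartile, 188 at 2-fold, 12 with at most 2 reads per bin and 1029 at an error of 0.01. The larger bin size that had been planned gave no value, since no window then had 20 bins read in 1 library alone. None of the 34 named windows and regions changed sign under the 5 settings tried on them. Depth limits the low windows: at 40 to 79 reads counting error alone has an SD of 0.39 on the log2 scale. The cause of these changes was not tested, beyond fewer reads or windows where a setting removes them.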

Other observations

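The extremes of the called windows lie outside the rule for naming and were picked after their values were seen. The largest rise was on chromosome 1, minus strand, from 136210001 to 136220000, next to a window described above. It went from 7 reads to 62 in siGPS2 (log2 3.06) and from 5 to 46 in siCTL (3.08). The largest fall was on chromosome 15, plus strand, from 64870001 to 64880000, from 77 reads to 8 in siGPS2 (-3.19) and from 47 to 12 in siCTL (-1.93). There 45 of the 77 reads lay in 1 bin. Among called windows with 640 reads or more, those that rose were on chromosome 8, plus strand, from 77990001, with 278 and 553 reads, and on chromosome 10, plus strand, from 126690001, with 237 and 498. In siCTL they went from 256 to 718 and from 126 to 345.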
